A study of Mus musculus with 2 samples.

Results

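Eomes nuclei, here, are 75 nuclei of the mouse brain at embryonic day 14 (E14) in which the RNA of Eomes was counted at least 2 times. Eomes, also called Tbr2, is the T-box factor that marks intermediate progenitors of the dorsal forebrain. The nuclei were chosen by the measured UMIs of Eomes and of a few genes of other cell types, among barcodes of at least 1500 UMIs (unique molecular identifiers, each standing for 1 captured RNA molecule) with under 5% of UMIs from mitochondrial genes. A chosen barcode had at least 2 Eomes UMIs, 0 of Trp73, at most 2 of Reln and at most 1 in the sum of Gad1, Gad2 and Dlx6os1. Trp73 and Reln mark Cajal-Retzius neurons, and the other 3 genes mark GABAergic cells. The 75 nuclei were 0.996% of the 7531 E14 barcodes of at least 1500 UMIs, with an exact binomial 95% interval of 0.784% to 1.25%. The E14 library held 9037 barcodes, and the series, with an adult hippocampus library, 10698.

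The study labelled nuclei in fresh-frozen tissue sections with spatial barcodes and then sequenced single-nucleus RNA. The E14 library came from the brain of a C57BL/6J embryo, bought snap-frozen as a whole embryo whose mother had been perfused with saline. No position of a nucleus was used here. Each tissue is 1 library with no replicate, so no test between groups was made. All intervals are 95% intervals that cover counting error only: exact Poisson for summed UMIs and exact binomial for shares of nuclei.

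Neurons of the cerebral cortex descend from radial glia, which divide at the ventricle. Some radial glial daughters become intermediate progenitors, which switch on Eomes, divide further away from the ventricle and give rise to glutamatergic neurons. The proneural factor Neurog2 acts around this step, and daughters that differentiate carry Notch ligands that signal to the neighbouring radial glia. The young neurons then migrate outward to the layers, which are built from the deep ones to the upper ones.

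The Eomes nuclei held 721792 UMIs together, from 1511 to 40357 per nucleus around a median depth of 6308. Among the other 7456 barcodes of at least 1500 UMIs the median depth was 4965.5. A level is given as CPM, the UMIs of a gene per 1000000 UMIs summed over the nuclei of a group. Further comparison sets had 0 Eomes UMIs and met the same limits on depth, mitochondrial, Cajal-Retzius and GABAergic genes. The 75 Pax6 and Emx nuclei had at least 2 UMIs of Pax6, at least 1 of Emx1 or Emx2 and at most 1 of Neurod2 and Neurod6 together, and their median depth was 5777. The 133 Neurod nuclei had, among other limits, at least 2 UMIs of Neurod2 and Neurod6 together, and a median depth of 5979. Pax6 and the Emx genes mark dorsal radial glia, and Neurod2 and Neurod6 mark young glutamatergic neurons of the forebrain. Genes used in these choices are a description and no finding. A doublet score marked 2 of the Eomes nuclei (2.67%) and 8.19% of the other barcodes, and marked nuclei were kept. The libraries shared 1 barcode, which was not an Eomes nucleus. No adult barcode met the limits, and the adult library held 3 Eomes UMIs in 3 barcodes.

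The rule left a set that was thin in Eomes. Of the 75 nuclei, 36 had exactly 2 Eomes UMIs, 14 had 3, 8 had 4, 10 had 5 and the highest had 12. Just outside the limit stood 128 barcodes with exactly 1 Eomes UMI that met the other limits. Neurog2 was at 71.8 CPM (45.5 to 108) in the nuclei with 2 Eomes UMIs, 38.2 (25.9 to 54.2) in those with 1 and 110 (79.7 to 147) in those with 3 or more. Unc5d, which encodes a netrin receptor of young cortical neurons, was at 2774, 1275 and 2130 CPM in the same order. Thus the nuclei just outside carried less of both genes than those just inside, with overlapping intervals for Neurog2.

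**Figure D1:**
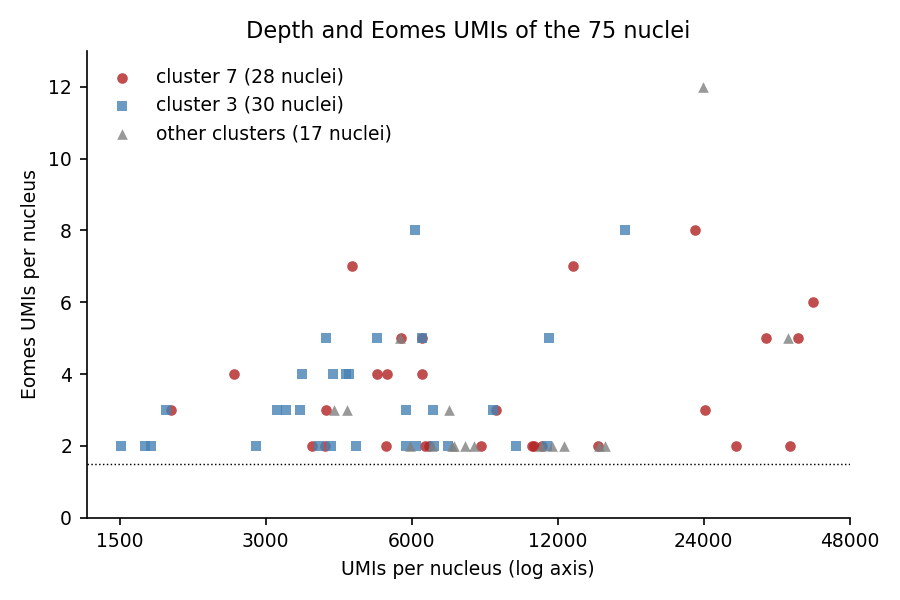
UMIs per nucleus (log axis) against Eomes UMIs per nucleus for the 75 Eomes nuclei, 1 point each, with symbols for the cluster of the nucleus and a dotted line at the limit of the rule. The nuclei spread from 1511 to 40357 UMIs, and 36 of them sit on the lowest allowed value of 2 Eomes UMIs.

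The limits on the other genes removed deep barcodes in particular. Of 226 barcodes with at least 2 Eomes UMIs, 151 were left out. Among them 49 exceeded the GABAergic limit alone, 30 the Trp73 or Reln limit alone and 72 both. Their median depth was 20115 UMIs against 6308 in the nuclei kept. Of the 113 shallower of these barcodes 54.9% were kept (45.2% to 64.2%), and of the 113 deeper 11.5% (6.27% to 18.9%). The doublet score marked 33 of the 151 barcodes left out and 2 of those kept, so the limits also removed marked barcodes. The barcodes left out had lower Neurog2, at 28.9 CPM (24.2 to 34.4), beside 92.8 CPM (71.9 to 118) in those kept. In the 30 left out for Trp73 or Reln alone, Lhx1 and Ebf3, known in Cajal-Retzius neurons, were at 138 CPM (101 to 183) and 150 CPM (111 to 197), against 11.1 (4.79 to 21.8) and 15.2 (7.61 to 27.3) in the Eomes nuclei. The Eomes nuclei held 252 of the 1113 Eomes UMIs of E14 barcodes of at least 1500 UMIs, so most Eomes RNA lay outside the set.

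The intermediate progenitor markers other than Eomes were checked next. Neurog2 and Gadd45g stood higher in the Eomes nuclei than in each comparison set, while Btg2 and Insm1 did not separate them from Pax6 and Emx nuclei. Of the 4 markers, 3 reached the 20 CPM needed in either group for a call, and all 3 were at least 2-fold higher than in the other barcodes. Among all 8687 genes so tested 6.99% were at least 2-fold higher, and the median log2 fold was 0.10. The 3 markers reached 20 CPM only in the Eomes nuclei, so the filter favoured a higher call and the count is a description. Eomes itself, at 349 CPM (307 to 395) against 15.1, chose the nuclei.

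Neurog2 had 67 UMIs in 32 of the 75 nuclei, with a median of 0 and a highest of 8 UMIs. Its level was 92.8 CPM (71.9 to 118) in the Eomes nuclei, 10.8 in the other barcodes, 30.2 (18.4 to 46.6) in Pax6 and Emx nuclei and 14.2 in Neurod nuclei. Gadd45g, a stress and differentiation gene downstream of proneural factors, had 54 UMIs in 31 nuclei. It was at 74.8 CPM (56.2 to 97.6) against 13.9, 28.7 and 14.2 CPM in the same order. Both were therefore more than 2-fold above either comparison set, and fewer than 1 in 2 nuclei showed a UMI.

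Btg2, which restrains the cell cycle, was at 26.3 CPM (15.8 to 41.1) in the Eomes nuclei and 7.14 in the other barcodes, but 27.1 in Pax6 and Emx nuclei. Insm1, a zinc finger factor of basal progenitors, had 8 UMIs in 8 nuclei and was at 11.1 CPM (4.79 to 21.8) against 6.68. Its intervals overlapped in all of the sets. Of the Eomes nuclei 48 (64.0%, 52.1% to 74.8%) had a UMI of at least 1 of these 4 markers, 3 had all 4 and 27 had 0.

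Shares of nuclei with a UMI depend on depth, so each nucleus was also thinned to 1500 UMIs. Collagen nuclei, which had at least 5 UMIs of Col1a1, Col1a2 and Col3a1 and should lack neural genes, gave the background. The doublet score marked 24.2% of them, and their depth reached 208500 UMIs. Neurog2 was found in 13.3% of thinned Eomes nuclei (6.58% to 23.2%) and 1.27% of thinned collagen nuclei, against 42.7% and 8.92% without thinning. Gadd45g was found in 12.0% and 1.27%, against 41.3% and 11.8% without thinning. Btg2 was found in 1.33% (0.0338% to 7.21%) of thinned Eomes nuclei, and Insm1 in none, with an upper bound of 4.80%, so that neither could be set apart from the background at this depth. Median depths were 6308 UMIs in the Eomes nuclei and 7482.5 in the 314 collagen nuclei.

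**Figure D2:**
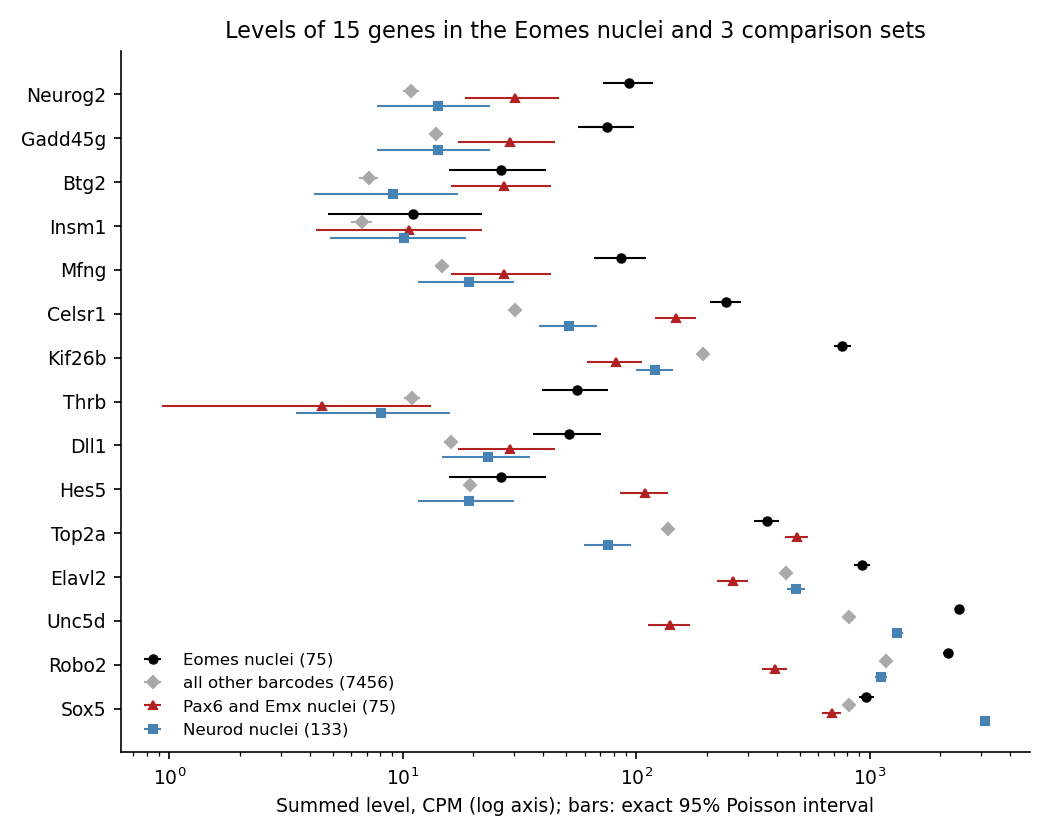
Levels of 15 genes in CPM (log axis) in the 75 Eomes nuclei and 3 comparison sets, with exact Poisson intervals as bars. Neurog2, at 92.8 CPM, and Kif26b, at 762 CPM, lie above the other sets, whereas Insm1 overlaps in all of them and Top2a lies between Pax6 and Emx nuclei and Neurod nuclei.

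Of 12 further genes known from intermediate progenitors, 9 were tested and 8 were at least 2-fold higher than in the other barcodes, with a median log2 fold of 1.77 over those tested. Mfng, Nhlh1 and Tfap2c reached 20 CPM only in the Eomes nuclei, so the filter favoured a higher call for them. The list was chosen with earlier results of these data known, so the counts are a description. Mfng, a fringe glycosyltransferase that modifies Notch, was at 85.9 CPM (65.9 to 110) in the Eomes nuclei. It was at 14.7 in the other barcodes, 27.1 in Pax6 and Emx nuclei and 19.2 in Neurod nuclei. Mfng was seen in 39 of the 75 nuclei, and in 20.0% (11.6% to 30.8%) after thinning against 2.55% of collagen nuclei, and in 52.0% of the Eomes nuclei without thinning.

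Other genes of this list were mostly higher than in the other barcodes. Nhlh1, a helix-loop-helix factor of newborn neurons, was at 27.7 CPM (16.9 to 42.8) against 4.82. Sstr2, a somatostatin receptor, was at 74.8 (56.2 to 97.6) against 21.9 in the other barcodes and 10.6 in Pax6 and Emx nuclei. Mfap4 was at 127 (103 to 156) against 24.5, and Rcor2, a chromatin corepressor, at 133 (108 to 162) against 42.8. Tfap2c, a factor of basal progenitors, was 5.22-fold higher than in the other barcodes but was at 54.3 CPM in Pax6 and Emx nuclei against 48.5 here. Chd7 was likewise 3.02-fold higher, with 609 CPM in Pax6 and Emx nuclei beside 697, and Hes6, a partner that opposes Hes1, was 2.02-fold higher. Pgap1, at 1.91-fold, missed the limit. Neurod1, at 6.93 CPM (2.25 to 16.2) against 7.19, was not higher, and Neurog1 and Neurod4 had 6 and 4 UMIs in the Eomes nuclei and 0 in both forebrain comparison sets.

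Promoters are shown for 3 of these genes, the leading marker, a second marker and the list member whose window held each motif searched. Windows run from 250 bases before to 50 after the start site in the RefSeq table of GRCm38.p6, with the first window listed for a gene. Neurog2 was at chr3:127632886-127633185 on the plus strand, Gadd45g at chr13:51846425-51846724 on the plus strand and Nhlh1 at chr1:172057547-172057846 on the minus strand. Capitals mark CAGATG (the E-box of Neurog and Neurod factors), AGGTGT (part of a T-box site) or TGGGAA (the RBPJ site), or their reverse complements.
Neurog2: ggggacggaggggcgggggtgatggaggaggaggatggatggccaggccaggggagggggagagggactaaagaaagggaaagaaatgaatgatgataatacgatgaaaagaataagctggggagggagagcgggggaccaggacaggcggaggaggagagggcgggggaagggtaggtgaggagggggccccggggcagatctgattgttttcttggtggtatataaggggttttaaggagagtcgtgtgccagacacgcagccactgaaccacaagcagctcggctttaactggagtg
Gadd45g: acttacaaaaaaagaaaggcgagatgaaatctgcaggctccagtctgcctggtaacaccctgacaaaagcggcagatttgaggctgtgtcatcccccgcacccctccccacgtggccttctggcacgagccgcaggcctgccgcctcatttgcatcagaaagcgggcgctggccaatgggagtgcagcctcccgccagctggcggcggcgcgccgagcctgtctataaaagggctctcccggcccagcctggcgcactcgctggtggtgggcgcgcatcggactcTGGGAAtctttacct
Nhlh1: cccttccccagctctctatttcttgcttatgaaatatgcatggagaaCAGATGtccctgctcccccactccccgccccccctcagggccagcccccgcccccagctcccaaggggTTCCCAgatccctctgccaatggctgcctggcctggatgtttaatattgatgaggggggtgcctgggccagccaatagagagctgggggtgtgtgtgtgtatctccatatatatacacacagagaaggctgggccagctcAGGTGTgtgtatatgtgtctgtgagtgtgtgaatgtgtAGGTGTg

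Nhlh1 had CAGATG 203 bases before the start site, AGGTGT at bases 5 and 43 after it, and the reverse complement of TGGGAA at base -135. Gadd45g had TGGGAA at base 35, and Neurog2 had no match in this window. Of the 17 markers and further intermediate progenitor genes 12 were in the table, and 1 (8.33%) held CAGATG, 4 (33.3%) AGGTGT and 3 (25.0%) TGGGAA on either strand. Over all 27025 genes of the table the shares were 17.2%, 13.9% and 25.5%. Of the 20 genes with the highest folds 16 were in the table, and 4, 5 and 4 of them held these motifs. These matches describe letters in a window and not binding.

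The genes with the highest folds over the other barcodes, after Eomes, were A930024E05Rik, Neurog2, Celsr1, Gm29260 and Gna14. Of these, A930024E05Rik, Neurog2 and Gna14 reached 20 CPM only in the Eomes nuclei, so the filter favoured a high fold for them. A930024E05Rik, an antisense RNA at chr5:122989354-122998345, was at 76.2 CPM (57.4 to 99.2) against 7.24, a 10.5-fold difference. Celsr1, an atypical cadherin of planar cell polarity, was at 241 CPM (207 to 280) against 30.3, and at 148 in Pax6 and Emx nuclei and 51.6 in Neurod nuclei. Celsr1 was seen in 52 nuclei, and in 28.0% after thinning, against 25.3% of thinned Pax6 and Emx nuclei, or 69.3% and 66.7% without thinning.

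Gm29260 and E130114P18Rik, both among the 20 genes with the highest folds, differed beside the comparison sets. Gm29260, a lincRNA at chr1:41781808-41939560, was at 1197 CPM (1119 to 1280) against 159 in the other barcodes, 1006 in Pax6 and Emx nuclei and 71.8 in Neurod nuclei. One nucleus held 20.5% of its UMIs in the set. E130114P18Rik, annotated as protein coding, was at 2415 CPM (2303 to 2531) against 367, 1068 and 708 in the same order, and was found in 68 of the 75 nuclei. Thus Gm29260 was shared with Pax6 and Emx nuclei, whereas E130114P18Rik was more than 2-fold higher here than in either set.

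The others of the 20 highest were Abcd2, Tmem177, G430095P16Rik, Siah3, Rhbdl3, Dhrs4, Ust, Mfng, Nhlh1, Rlbp1, Gadd45g, Plcxd2 and 2610035D17Rik. Their folds ranged from 5.36 in 2610035D17Rik to 7.18 in Abcd2, a peroxisomal fatty acid transporter. Some of these genes, such as Gadd45g and Dhrs4, also reached 20 CPM only in the Eomes nuclei. Ust, a uronyl sulfotransferase, was at 320 CPM (280 to 364) against 54.3, and Siah3 was at 272 (235 to 312) against 43.5. Rlbp1, a retinoid binding protein, was at 26.3 CPM (15.8 to 41.1) against 33.2 in Pax6 and Emx nuclei, so its fold over all other barcodes did not set it apart from them. Gna14, a G protein subunit, had 20 UMIs in 5 nuclei, and its fold of 7.37 was 3.11 with at least 3 Eomes UMIs and 4.84 as a mean over nuclei.

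At the other end 981 genes, 11.3% of those tested, were at least 2-fold lower. The 10 lowest included Dlx6os1, Gad2 and Gad1, which the rule limited, and Lhx6, a factor of cortical interneurons, with 1 UMI or 1.39 CPM (0.0351 to 7.72) against 30.1. Htr2c, a serotonin receptor abundant in choroid plexus, had 3 UMIs, 4.16 CPM (0.857 to 12.1) against 205. Otx2os1 had 2 UMIs, 2.77 CPM (0.336 to 10.0) against 69.8, while Shisa7, Gm1043, Ecel1 and L3mbtl4 had 1 UMI each, beside 29.8 to 40.9 CPM in the other barcodes.

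To find genes that marked the Eomes nuclei within the forebrain lineage, their levels were set beside both comparison sets. Of 7739 genes with at least 20 CPM in the Eomes nuclei, 82 (1.06%) were at least 2-fold above both. The filter thus used the set in which a gene had to be high. By the ratio to the higher comparison set, Thrb came first among genes other than Eomes, which both sets lacked by choice. Thrb, a thyroid hormone receptor gene at chr14:17660261-18038090, was at 55.4 CPM (39.6 to 75.5) against 4.52 (0.933 to 13.2) in Pax6 and Emx nuclei and 8.09 (3.49 to 15.9) in Neurod nuclei. It had 40 UMIs in 16 nuclei. Gm48321, an antisense gene inside Thrb at chr14:17931138-18021909, was at 24.9 CPM (14.8 to 39.4), with 18 UMIs in 8 nuclei. Whether strand was used in counting is not given in the sources used here, and whether reads of 1 gene were counted for the other was not tested.

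Kif26b, which encodes a kinesin-like protein and lies at chr1:178529125-178939200, was found in the most nuclei among the 10 genes highest above both sets, Eomes left out. It was at 762 CPM (700 to 828) in the Eomes nuclei, 192 in the other barcodes, 81.4 (61.2 to 106) in Pax6 and Emx nuclei and 120 (99.6 to 144) in Neurod nuclei. Of the 75 nuclei 58 had a Kif26b UMI, with a median of 3 and a highest of 57. After thinning it was found in 57.3% (45.4% to 68.7%) of Eomes nuclei, 6.67% of Pax6 and Emx nuclei, 9.77% of Neurod nuclei and 17.2% of collagen nuclei. Without thinning the shares were 77.3%, 24.0%, 22.6% and 41.1%.

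Others of the 10 genes highest above both sets were Gna14, Gm16564, Dhrs4, 9530036M11Rik, Tmem177 and Disp3. Disp3, a sterol-sensing domain protein gene, was at 80.4 CPM (61.0 to 104) against 9.05 in Pax6 and Emx nuclei and 24.3 in Neurod nuclei. Dhrs4, a short-chain dehydrogenase gene, was at 51.3 CPM (36.1 to 70.7) against 12.1 and 14.2, and Gm16564 was at 41.6 CPM (28.0 to 59.3) against 6.03 and 9.10.

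Notch pathway genes differed among themselves, also within a role. Of 16 genes with enough counts 6 lay above both comparison sets, 2 below both and 8 between them, all 8 higher in Pax6 and Emx nuclei. Over all 9181 genes 26.6% lay above both, 25.7% below both and 31.7% between them in that order. The ligand gene Dll1 and the fringe gene Mfng had their highest values in the Eomes nuclei, whereas the receptors Notch1, Notch2 and Notch3, the targets Hes1 and Hes5 and the fringe gene Lfng had lower values than in Pax6 and Emx nuclei. Of the 21 genes of this list 14 were tested, with 4 at least 2-fold higher than in the other barcodes (Notch1, Dll1, Mfng and Hes1), 1 lower (the ligand Jag2) and a median log2 fold of 0.68. Dll1 and Mfng reached 20 CPM only in the Eomes nuclei, so the filter favoured a higher call for them. Hes1, at 2.30-fold, was at 1.89-fold both as a mean over nuclei and with at least 3 Eomes UMIs, and so lost its call. Dll1, the Delta ligand, had 37 UMIs in 26 nuclei and was at 51.3 CPM (36.1 to 70.7), 3.21-fold above the other barcodes, with 28.7 in Pax6 and Emx nuclei and 23.2 in Neurod nuclei. The interval overlapped that of Pax6 and Emx nuclei, 17.3 to 44.7. Dll3 had 11 UMIs, at 15.2 CPM (7.61 to 27.3).

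Among receptors, Notch1 was at 104 CPM (81.7 to 130) against 152 in Pax6 and Emx nuclei and 21.2 in Neurod nuclei. Notch3 was at 34.6 CPM (22.4 to 51.1) against 146, and Notch2 at 125 (100 to 153) against 238. The target Hes5 was at 26.3 CPM (15.8 to 41.1) against 109 (85.0 to 137) in Pax6 and Emx nuclei and 19.2 in Neurod nuclei. Hes1 was at 54.0 (38.4 to 73.9) against 109 and 26.3, and the fringe gene Lfng at 15.2 (7.61 to 27.3) against 51.3. Hes5 was found in 10 of the 75 nuclei, and 1 nucleus held 26.3% of its UMIs. Of the nuclear members, Rbpj was at 206 CPM (175 to 242) against 179 and 151, and the coactivator Maml3 at 948 (878 to 1021) against 621 and 343.

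Cell cycle genes were abundant in the Eomes nuclei. Of 24 mitosis genes 21 were tested and 19 were at least 2-fold higher than in the other barcodes, with a median log2 fold of 1.35. Of 22 DNA replication genes 13 were tested and 4 were higher (Rrm2, Dtl, Brip1 and Atad2), with a median of 0.83. Top2a, the topoisomerase of dividing cells, was at 363 CPM (320 to 410) against 137, and Mki67 at 157 (129 to 188) against 61.3. Top2a was found in 36 nuclei with a highest of 32 UMIs and a median of 0. After thinning it was found in 22.7% (13.8% to 33.8%) of Eomes nuclei and 17.2% (13.2% to 21.8%) of collagen nuclei, or 48.0% and 43.6% without thinning.

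Both genes were below Pax6 and Emx nuclei, which had 487 CPM of Top2a and 225 of Mki67, and above Neurod nuclei, which had 75.8 and 28.3. The same order, descending from Pax6 and Emx nuclei through Eomes nuclei to Neurod nuclei, held for 20 of 22 mitosis genes and 16 of 19 replication genes with enough counts. Over 9181 genes 31.7% had this order. Of 8 D cyclins and cyclin-dependent kinase inhibitors 4 were tested and 2 were higher, Ccnd2 at 245 CPM (210 to 284) against 115 and Cdkn1b, which holds cells out of the cycle, at 36.0 (23.5 to 52.8) against 16.7. Cdkn1b reached 20 CPM only in the Eomes nuclei, so the filter favoured a higher call for it. The list's median was 0.40.

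Radial glia genes were lower than in Pax6 and Emx nuclei. Of 12 genes 11 were tested against the other barcodes and 3 were higher, Sox9, Hes1 and Pax6, with a median of 0.44. Pax6, at 236 CPM (201 to 274), was used to choose a comparison set. Sox2 had 21 UMIs and was at 29.1 CPM against 61.8 in Pax6 and Emx nuclei, and the glutamate transporter Slc1a3 at 169 (140 to 202) against 296. Ptprz1, a receptor phosphatase, was at 452 CPM (404 to 503) against 1019. Of the 11 genes of this list that could be set beside both sets, 9 lay between them, higher in Pax6 and Emx nuclei, and 2 below both. Over all 9181 genes 31.7% had the former order and 25.7% lay below both.

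Newborn neuron genes were unevenly represented. Of 14 genes 12 were tested, 4 were at least 2-fold higher and 1 lower, with a median log2 fold of 0.14, close to that of all genes. Elavl2, an RNA-binding protein gene of early neurons whose fold was 1.98 with folds divided by their median, was at 925 CPM (857 to 998) against 437 in the other barcodes, 259 in Pax6 and Emx nuclei and 484 in Neurod nuclei. It was seen in 71 of the 75 nuclei, where the median was 6 UMIs and the highest 47. Elavl4 was at 478 CPM (429 to 531) against 214 and 190 in the forebrain sets. Rnd2, a small GTPase downstream of Neurog2, was at 30.5 CPM (19.1 to 46.1) against 9.33 in the other barcodes. It reached 20 CPM only in the Eomes nuclei, so the filter favoured a higher call for it.

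The newborn neuron gene called lower was Stmn2, a regulator of microtubules, at 148 CPM (121 to 179) against 488. Tubb3, a neuronal tubulin gene, was at 252 (217 to 292) against 458 and did not reach 2-fold. Dcx, doublecortin, was at 294 CPM (256 to 336), above the 82.9 of Pax6 and Emx nuclei and below the 371 of Neurod nuclei. Neurod6 and Neurod2, which chose the Neurod nuclei, were at 161 CPM (133 to 193) and 34.6 CPM (22.4 to 51.1). A UMI of Pax6 together with one of Neurod6 or Neurod2 was found in 26 of the 75 Eomes nuclei (34.7%, 24.0% to 46.5%) and in 9.55% (6.54% to 13.4%) of collagen nuclei. After thinning it was found in 3 Eomes nuclei, a share with an interval of 0.833% to 11.2%, and in 0 of 314 collagen nuclei, with an upper bound of 1.17%, so the shares could not be told apart at that depth.

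Migration and guidance genes went both ways. Of 17 genes 16 were tested, with 2 at least 2-fold higher (Unc5d and Plxna2), 4 lower (Sema6d, Robo1, Flrt2 and Vldlr) and a median of 0.29. Unc5d was at 2416 CPM (2304 to 2532) against 814 in the other barcodes, 139 (112 to 170) in Pax6 and Emx nuclei and 1311 in Neurod nuclei. The nuclei differed widely, with 0 UMIs in the lowest, a median of 9 and a highest of 163. After thinning 58.7% had a UMI, against 9.33% of Pax6 and Emx nuclei, 53.4% of Neurod nuclei and 20.4% of collagen nuclei, or 69.3%, 26.7%, 68.4% and 37.6% without thinning.

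The Slit receptors Robo1 and Robo2 differed in direction. Robo2 was at 2170 CPM (2063 to 2280) against 392 in Pax6 and Emx nuclei and 1117 in Neurod nuclei, whereas Robo1 was at 549 (496 to 605) against 995 and 1685. Plxna2, a plexin gene, was at 817 CPM (753 to 886) against 208 and 951, and its partner Nrp1 at 495 (445 to 549) against 101 and 708. Sema6d was at 208 CPM (176 to 244) against 262 and 560. Hence Unc5d and Robo2 stood above both sets, Plxna2 and Nrp1 between them and Robo1 and Sema6d below both.

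Layer genes were present at mixed levels. Of 8 deep layer genes 7 were tested, with 2 higher (Fezf2 and Foxp2), 1 lower (Tle4) and a median of 0.24. Of 7 upper layer genes 5 were tested, with 1 higher (Pou3f3) and a median of 0.24. Pou3f3, a POU domain factor, was at 84.5 CPM (64.6 to 109) against 39.6 in the other barcodes, 101 in Pax6 and Emx nuclei and 29.3 in Neurod nuclei. Set beside both comparison sets, 5 of the 8 deep layer genes lay between them and were higher in Neurod nuclei, a pattern held by 1470 of all 9181 genes, 1 lay between them and was higher in Pax6 and Emx nuclei, 1 lay above both and 1 below both. Foxp2, above both, was at 727 CPM (666 to 792) against 504 and 265, and Tle4, below both, at 255 (219 to 295) against 406 and 391. Beside Neurod nuclei, Sox5 was at 967 CPM (897 to 1042) against 3108, Bcl11b at 154 (127 to 185) against 581 and Zfpm2 at 428 (382 to 479) against 1413. Tbr1, which follows Eomes in the cortical lineage, had 16 UMIs in 12 nuclei, at 22.2 CPM (12.7 to 36.0) against 49.5 (36.6 to 65.5) in Neurod nuclei.

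Regional factors of the dorsal forebrain were higher in the Eomes nuclei than in the other barcodes, a trait shared with both forebrain sets. The list summed to 12910 CPM here, 10581 in Pax6 and Emx nuclei and 9652 in Neurod nuclei, with genes that chose these sets included. After thinning Nfib was found in 94.7%, 93.3% and 96.2% of nuclei in the same order and in 64.6% of collagen nuclei. Without thinning the shares were 94.7%, 97.3%, 98.5% and 90.8%. Of 11 such genes 10 were tested, with 7 higher, 1 lower (Nr2f2) and a median of 1.64. Lhx2, a selector gene of the cortex, was at 281 CPM (244 to 323) against 56.9 in the other barcodes, and Nfia and Nfib were at 3872 (3730 to 4019) and 4945 (4784 to 5110) against 1042 and 1304. Meis2 was at 3333 CPM (3201 to 3469) against 1137, and Dmrta2, with 21 UMIs, at 29.1 against 8.79. Dmrta2 reached 20 CPM only in the Eomes nuclei, so the filter favoured a higher call for it.

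The Eomes nuclei were not uniform in the cell cycle. After thinning to 1500 UMIs, the UMIs of the replication and mitosis genes numbered 0 in 24 nuclei, 1 to 2 in 22 and at least 3 in 29, with a highest of 14. The share with at least 3 was 38.7% (27.6% to 50.6%). It was 74.7% (63.3% to 84.0%) in Pax6 and Emx nuclei, 11.3% (6.45% to 17.9%) in Neurod nuclei, 29.9% in collagen nuclei and 16.6% in all the other barcodes. The sets are ranges of a count and not types: 12 nuclei lay at 2 UMIs and 5 at 3. Median depths before thinning were 4842.5, 7891.5 and 8933 UMIs from the set with 0 to that with at least 3.

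With these sets side by side, radial glia genes were lower and newborn neuron genes higher where cycle UMIs were fewer. Genes that chose a set were left out of the sums. The 11 radial glia genes summed to 1418 CPM (1303 to 1540) in nuclei with at least 3 cycle UMIs, 851 (728 to 990) with 1 to 2 and 370 (272 to 493) with 0. Pax6 and Emx nuclei were at 2187 and Neurod nuclei at 1126 (1061 to 1194), above the sets with 1 to 2 and with 0. The sum did not follow most single genes. Over all Eomes nuclei 9 of these 11 genes were above Neurod nuclei and 2 below both comparison sets. The 12 newborn neuron genes summed to 2520 CPM (2366 to 2681), 3265 (3018 to 3526) and 3910 (3573 to 4269) in the same order, beside 1392 in Pax6 and Emx nuclei and 3316 in Neurod nuclei. The further intermediate progenitor genes were at 1402, 1768 and 1608 CPM, above the 985 of Pax6 and Emx nuclei and the 670 of Neurod nuclei in each set.

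**Figure D3:**
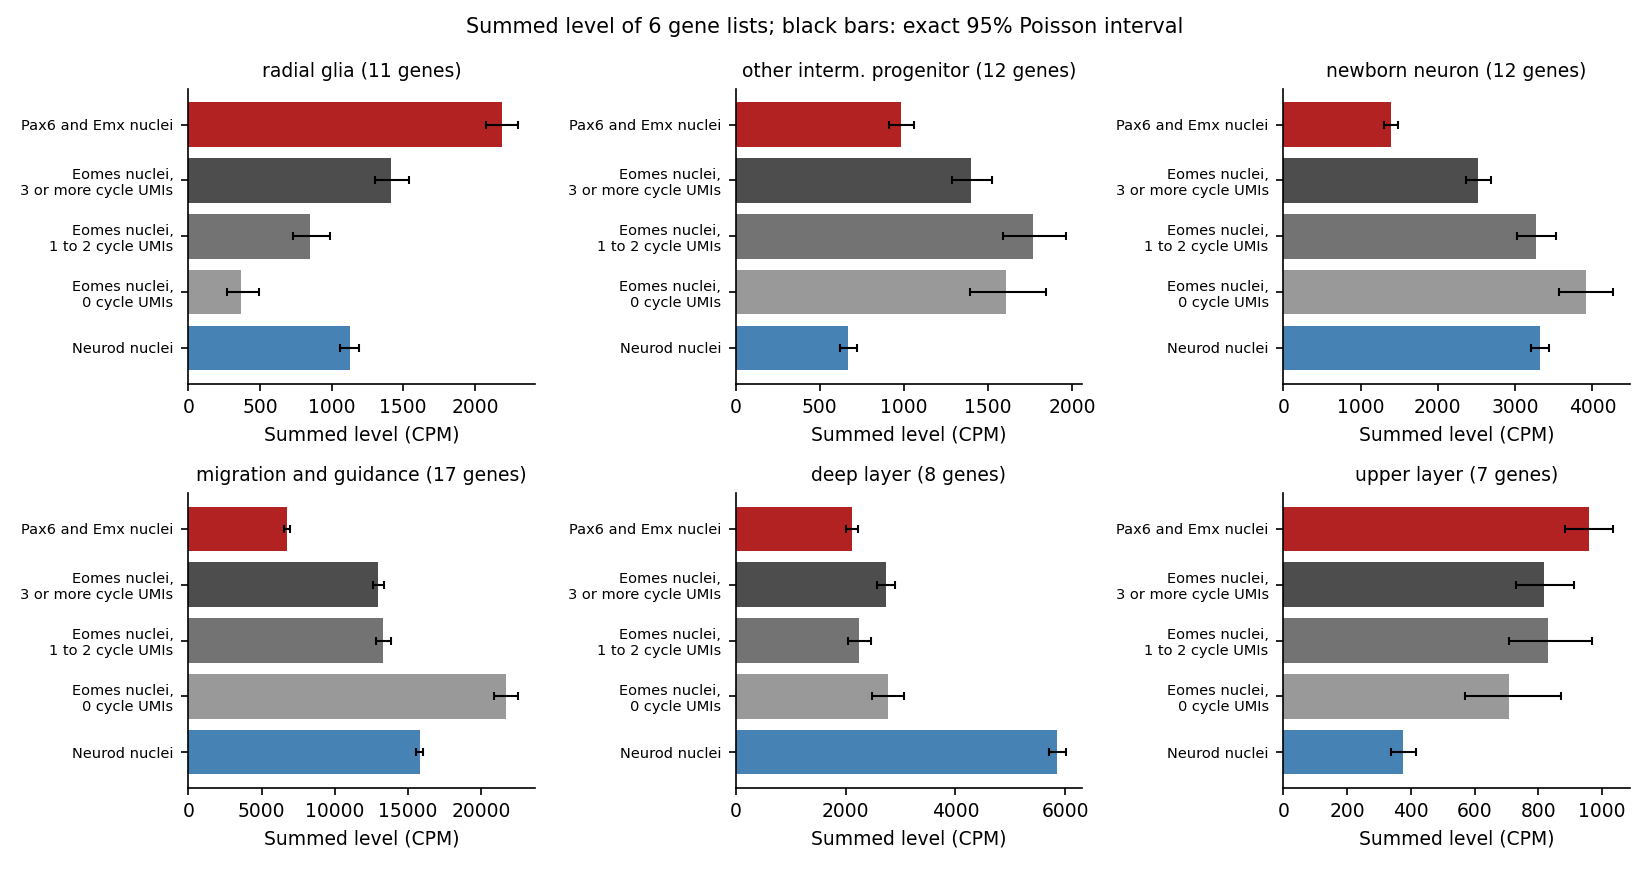
Summed level in CPM of 6 gene lists in Pax6 and Emx nuclei, in Eomes nuclei with 3 or more, 1 to 2 and 0 cycle UMIs at 1500 UMIs per nucleus, and in Neurod nuclei, with exact Poisson intervals as black bars. Radial glia genes step down from 1418 to 370 CPM across the Eomes sets and newborn neuron genes step up from 2520 to 3910 CPM, while further intermediate progenitor genes stay between 1402 and 1768 CPM.

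Migration and guidance genes summed to 12971 CPM and 13301 CPM in the sets with at least 3 and with 1 to 2 cycle UMIs and to 21684 (20881 to 22510) in the set with 0, above the 15798 of Neurod nuclei. Most of the last sum came from Dcc, Unc5d and Robo2, at 7268, 4524 and 3673 CPM, so it does not describe the list as a whole. Over all Eomes nuclei 5 of 16 genes of the list lay above both comparison sets and 6 below both. Single genes followed different courses across the sets with at least 3, 1 to 2 and 0 cycle UMIs. Kif26b was at 522, 710 and 1592 CPM (1380 to 1828 in the last), and Dcx at 192, 307 and 591. Hes1 was at 78.2 CPM (53.1 to 111), 30.2 and 15.8 (1.91 to 56.9). Neurog2 was at 68.1 CPM (44.9 to 99.1), 151 (102 to 216) and 78.8 (37.8 to 145), and thus stood highest in the middle set, with overlap to the last. Celsr1, at 245, 237 and 236 CPM, and Dll1, at 50.4, 50.4 and 55.2 CPM, were level across the sets. Deep layer genes, at 2734, 2247 and 2767 CPM, stayed in each set below the 5856 of Neurod nuclei, and upper layer genes, at 817, 831 and 709 CPM, above their 376. The Notch list was at 2628, 2302 and 2042 CPM.

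The same relation was seen over single nuclei. Over the 75 thinned nuclei, the UMIs of the radial glia list and those of the migration list had a Spearman rho of -0.42 and a Pearson r of -0.35, and with the newborn neuron list -0.38 and -0.33. Cycle UMIs had 0.42 and 0.49 with the radial glia list and -0.31 and -0.28 with the newborn neuron list. These are descriptions, since the nuclei share 1 library and 1 depth after thinning, and lists within a nucleus share its UMIs.

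**Figure D4:**
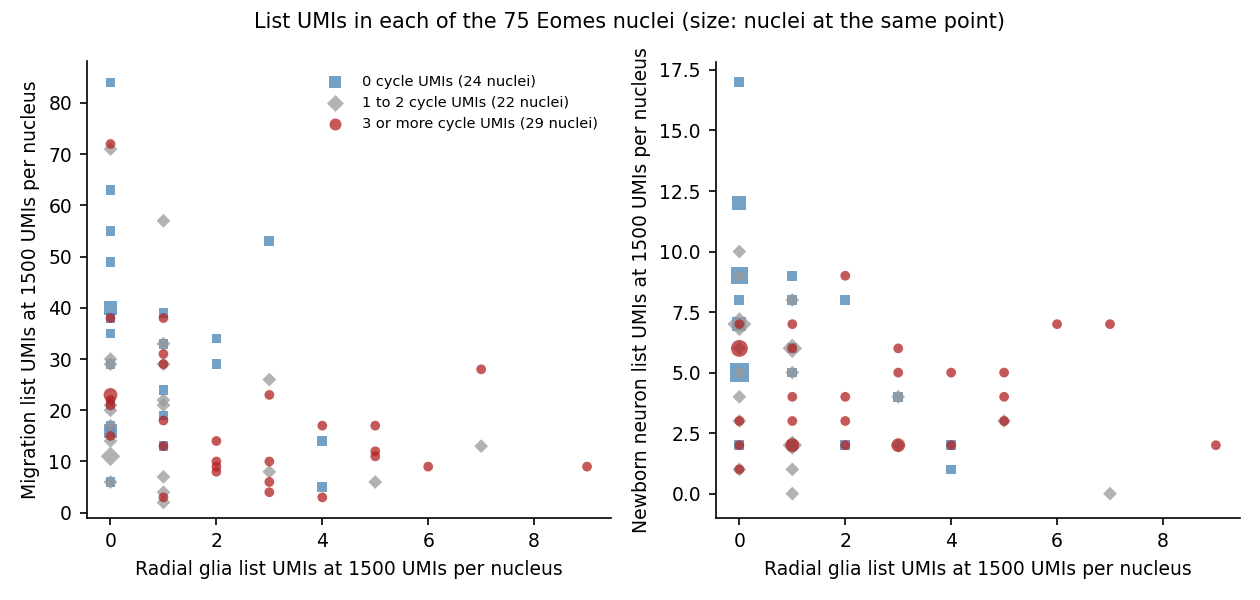
UMIs of the radial glia list against those of the migration list (left) and of the newborn neuron list (right) in each of the 75 Eomes nuclei thinned to 1500 UMIs, with color and symbol for the cycle UMIs and size for nuclei at the same point. Nuclei with the most migration UMIs mostly have 0 or 1 radial glia UMIs, and the rank correlation is -0.42 on the left and -0.38 on the right.

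A clustering of the library divided the Eomes nuclei rather than collecting them. Of 22 clusters 8 held Eomes nuclei. Cluster 3, led by Slc17a7, Itprid1 and Neurod2, held 30 of them (40.0%, 28.9% to 52.0%) together with 112 of the 133 Neurod nuclei. Cluster 7, led by Mybpc1, Dct and Gm29260, held 28 (37.3%, 26.4% to 49.3%) together with 57 of the 75 Pax6 and Emx nuclei. Cluster 5 held 8, and 9 lay in 5 further clusters. At least 3 cycle UMIs were found in 5 of the 30 nuclei in cluster 3 and in 20 of the 28 in cluster 7. The clusters were made from the same genes, so levels by cluster are a description.

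In cluster 7, Eomes nuclei differed from the 330 neighbours of at least 1500 UMIs with 0 Eomes UMIs in genes such as Ebf2, Neurod6, Unc5d and Kif26b. Ebf2, one of the Cajal-Retzius genes listed below, was at 73.7 CPM (48.6 to 107) against 5.18, with 27 UMIs in 10 nuclei. Neurod6 was at 158 CPM (120 to 205) against 12.7, Unc5d at 1460 (1339 to 1589) against 176 and Kif26b at 551 (478 to 633) against 79.4. Neurog2 was at 120 CPM (87.2 to 161) against 39.7. The replication genes summed to 1204 CPM (1094 to 1321) against 1581 (1522 to 1641) and the mitosis genes to 2715 (2549 to 2890) against 2668. Top2a was at 636 CPM (557 to 723) against 530 (496 to 565) and Mki67 at 224 (178 to 278) against 252, and Hes5 was at 32.7 (16.9 to 57.2) against 67.3 (55.7 to 80.7).

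In cluster 3, where Neurod6 was alike at 270 CPM (197 to 361) against 242 in 453 neighbours with 0 Eomes UMIs, the deep layer genes summed to 2994 CPM (2737 to 3269) in the Eomes nuclei against 5649. Sox5 was at 1032 CPM (884 to 1198) against 2864, Zfpm2 at 720 (597 to 861) against 1508 and Bcl11b at 306 (228 to 402) against 511. Foxp2 of the same list was higher, at 648 CPM (532 to 782) against 234 (218 to 250), and Tbr1 was at 48.0 (20.7 to 94.6) against 39.6. Unc5d was at 5203 CPM (4862 to 5561) against 1492, and Kif26b at 1518 (1337 to 1717) against 164. Gm29260 was at 660 CPM (543 to 796) against 30.6, Neurog2 at 84.0 (45.9 to 141) against 9.26 and Mfng at 126 (78.0 to 193) against 18.2. Unc5d, Kif26b, Neurog2 and Mfng were thus higher than in neighbours without Eomes UMIs in both clusters, and Sox5 was higher in cluster 7, at 1059 CPM (956 to 1170) against 570, and lower in cluster 3.

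The 9 nuclei outside clusters 3, 5 and 7 were unlike the rest in several genes. Of them 4 lay in cluster 15 and 2 in cluster 19, which held 0 Pax6 and Emx nuclei and 0 Neurod nuclei. Cluster 19 also held 12 of the 30 barcodes left out for Trp73 or Reln alone. The 9 nuclei had 0 UMIs of Neurod6 and Top2a, each with an upper bound of 59.3 CPM, beside 161 and 363 CPM in the whole set. Nfib was at 1512 CPM (1222 to 1851) beside 4945, and Plxna2 at 64.4 (17.5 to 165) beside 817. Kif26b, at 740 CPM (542 to 987), and Mfng, at 80.4 (26.1 to 188), were near the levels of the whole set. Neurog2 was at 48.3 CPM (9.95 to 141) in these 9 nuclei.

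No tested marker in the lists of other cell types was at least 2-fold higher than in the other barcodes, and the lists differed in how many were lower. Of 8 GABAergic genes not used by the rule 5 were tested and 5 were lower, with a median log2 fold of -3.53; Dlx2 and Dlx5 were at 0 UMIs, and the list summed to 30.5 CPM against 206, with 0 to 450 CPM in single nuclei. Of 6 Cajal-Retzius genes 3 were tested and 2 lower, with a median of -1.92. Ebf2 was the exception, at 58.2 CPM (41.9 to 78.7) against 46.2 in the other barcodes, 3.02 in Pax6 and Emx nuclei and 22.2 in Neurod nuclei, and its part in the other results was not tested. Of the mitral cell genes, which also include Eomes, Tbx21 and Cdhr1 were at 0 UMIs, and only Tbr1 was tested.

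Of 8 rhombic lip and cerebellar genes 3 were tested and 2 were lower (median -1.22), with Atoh1 and Pax3 at 0 UMIs. Of 8 genes of thalamus, hypothalamus and midbrain 5 were tested and 3 were lower (median -1.15), with En1 at 0. Endothelial genes were lower in 4 of 4 tested (median -2.70), summing to 24.9 CPM against 137. Mesenchymal genes were lower in 0 of 3 (median -0.95), microglial genes in 0 of 2 (median -0.10) with C1qa at 0, and red blood cell genes in 2 of 6 (median -0.16), with Hbb-bs at 134 CPM (109 to 164) against 124.

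Both choroid plexus genes tested were lower (median -4.14), and Kl and Clic6 were at 0. Ttr, the transthyretin gene that choroid plexus expresses strongly, was at 186 CPM (156 to 220) against 1176, 433 and 629 in the other barcodes, Pax6 and Emx nuclei and Neurod nuclei. It was found in 36.0% of thinned Eomes nuclei and in 34.7% to 44.1% of each other set, or 81.3% of the Eomes nuclei and 78.2% to 86.9% of the other sets without thinning. The shares were alike in every set, whereas the levels differed. Whether this RNA was background, and what part such RNA had in the other results, was not tested.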

How the data were processed

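Single-nucleus RNA was sequenced with a droplet kit. The authors aligned reads to mm10 with Cell Ranger (header of the E14 matrix: 7.0.1), counting intronic reads, and deposited counts of UMIs per gene and barcode for 32285 genes. The methods also name an ambient RNA remover for the embryo, whereas the header names Cell Ranger output. Here barcodes of at least 1500 UMIs were used, counts were summed per set and divided by the total. Genes of at least 20 CPM in either set were called at 2-fold. Intervals were exact (scipy 1.17.1). Clustering followed the stated settings (Seurat 5.3.0, 2000 variable genes, 30 components, resolution 0.8). Scrublet (scanpy 1.11.5) marked 0 nuclei by its own threshold, so the 653 highest scores were marked. The 2-fold calls were tested on simulated counts, and thinned nuclei were checked to reach the target number of UMIs. Other steps were not tested on simulated data. The members and gene lists were chosen with earlier results of these data known. Genes were named if they were in the rule, markers or lists, among the 20 highest or 10 lowest folds, among the 10 highest above both comparison sets, or led a cluster of 20 or more members. A further limit of the Neurod set, 1 comparison with a narrower set of other barcodes and 2 genes of the lists are not reported here. Alternatives changed limits, filters, scaling and sets.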

Additional observations from a re-analysis of the deposited data

How the results depend on the processing

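No paired analysis was possible because each group had 1 library. The share of Eomes nuclei was 2.70% with at least 1 Eomes UMI and 0.518% with at least 3. Genes at least 2-fold higher and lower numbered 1090 and 1920 with a filter of 5 CPM, 350 and 557 with 50 CPM and 509 and 1091 with folds divided by their median, against 607 and 981. The 4 markers summed to 258 CPM as a mean over nuclei and 249 with at least 3 Eomes UMIs, against 205. The share with at least 3 cycle UMIs was 69.3% without thinning, and 54.7% had at least 2. Genes above both comparison sets numbered 129 with stricter sets of 35 and 50 nuclei and 136 for the 58 Eomes nuclei in clusters 3 and 7, an alternative added after seeing the data. The causes were not tested, except that filters and limits change the genes or nuclei counted. Filters leave single folds as they are; of 210 gene folds under the other alternatives 201 kept their side of 2-fold and 0 called folds changed direction. Without the deepest nucleus, also added later, 594 genes were higher and 976 lower. With 721792 UMIs in the set, the exact Poisson upper bound of a gene at 0 UMIs was 5.11 CPM.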
